A study of Mus musculus with 4 samples.

Results

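The SLAM family genes Slamf1, Cd48, Ly9, Cd84, Slamf6, Slamf7, Slamf8 and Slamf9 were followed across 4 expression arrays of mouse lymphoid-primed multipotent progenitors (LMPPs), early blood progenitors of the bone marrow that are biased towards lymphoid and myeloid fates. They were taken as every probe set whose single platform gene symbol was one of these names, which gave 13 probe sets of 45037 and 8 genes of 18193. Lineage-negative cells with Sca-1, c-Kit and abundant Flt3 were sorted from C57Bl/6 mice of 6 to 8 weeks, either wild type or Lyl1-null, with 2 arrays per genotype. The Lyl1-null libraries, titled Lyl1 KO LMPPs1 and LMPPs2, are called KO1 and KO2 after those labels. Lyl1 encodes a bHLH transcription factor close to Tal1, active in early blood cells, and the comparison asks which transcripts differ when it is missing. The labels name the allele only by a citation. Whether same-genotype libraries were made from separate mice or pools is not stated there, so each p-value reflects sample-to-sample spread that could be technical in origin.

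SLAM family proteins are immunoglobulin-like receptors of blood cells. Most of them bind a copy of themselves on a neighbouring cell and signal through small adaptors such as SAP (gene Sh2d1a) and the kinase Fyn, whereas Cd48 (also called SLAMF2) is held by a lipid anchor, has no signalling tail and binds Cd244 (2B4) and Cd2. In mouse marrow, Slamf1 (CD150) and Cd48 are the surface pair used to separate stem cells, which carry CD150 without CD48, from the multipotent and committed progenitors that gain CD48. Ly9 (CD229), Cd84 and Slamf6 (Ly108) are best known from lymphocytes, Slamf7 (CRACC) from natural killer and plasma cells, and Slamf8 and Slamf9 from myeloid cells.

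Lyl1 forms dimers with E proteins that bind the E-box, spelled CANNTG and identical on both strands. RefSeq promoter windows of assembly GRCm38.p6, running from 250 bases before to 50 bases from a start site, matched 7 of the 8 genes, with Ly9 the member without an entry. The windows of Cd48 and Cd84, the genes lower in both KO libraries, and of Slamf9, which was higher in both, are shown with each E-box match in capitals. They lie on chromosome 1, on the plus strand, at chr1:171681742-171682041, chr1:171839447-171839746 and chr1:172475110-172475409.
Cd48: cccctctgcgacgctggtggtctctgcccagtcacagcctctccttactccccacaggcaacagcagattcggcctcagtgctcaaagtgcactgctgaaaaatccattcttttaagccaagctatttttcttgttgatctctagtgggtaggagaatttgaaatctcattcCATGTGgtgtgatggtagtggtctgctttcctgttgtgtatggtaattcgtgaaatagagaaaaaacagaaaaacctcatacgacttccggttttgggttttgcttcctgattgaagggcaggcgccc
Cd84: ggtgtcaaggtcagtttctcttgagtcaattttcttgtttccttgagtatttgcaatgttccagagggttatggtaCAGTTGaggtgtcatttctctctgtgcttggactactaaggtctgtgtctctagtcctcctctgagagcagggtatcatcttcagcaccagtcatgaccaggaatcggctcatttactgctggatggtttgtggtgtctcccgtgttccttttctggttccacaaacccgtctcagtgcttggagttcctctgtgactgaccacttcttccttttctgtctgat
Slamf9: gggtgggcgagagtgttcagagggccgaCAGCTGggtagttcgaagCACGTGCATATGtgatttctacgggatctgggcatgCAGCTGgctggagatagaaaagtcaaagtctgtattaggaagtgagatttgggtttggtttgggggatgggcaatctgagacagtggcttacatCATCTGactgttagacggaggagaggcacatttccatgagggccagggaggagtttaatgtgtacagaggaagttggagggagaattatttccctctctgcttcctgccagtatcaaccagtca
Cd48 has 1 match, CATGTG, beginning 78 bases before the start, and Cd84 has 1, CAGTTG, beginning 174 bases before it. Slamf9 has 5. All 7 windows hold at least 1 match, as do 72.3% of 32851 RefSeq promoter windows of the same length, so the presence of a match does not set the family apart. A match is a run of letters and was not tested for binding.

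Values are on the log2 scale of RMA, and a difference of 1 is a 2-fold change. The Lyl1 probe set (1419120_at) read 12.34 and 12.29 in the wild-type libraries, 5.14 in the library labelled KO1 and 10.32 in the library labelled KO2. The KO2 value, 25.1% of the mean of wild type, goes against its label. How the allele relates to this probe set is unstated in the labels. The same library read 14.26 for Xist, an RNA of female cells, against 5.81 to 6.30 in the other 3. Comparing KO2 with the rest one at a time, 518 to 859 genes were 2-fold or more apart, while 42 to 128 were for pairs of the others. Its values were also more compressed, with an SD over probe sets of 2.34 against 2.44 to 2.48. The KO libraries are therefore given separately throughout. Among sort markers, Flt3 read 11.26 to 12.12 and Kit 8.97 to 10.27 over the 4 libraries.

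Of the 8 genes, 4 had a probe set whose mean over the arrays reached the expression filter, which was the median of all probe-set means (5.69). These were Cd48, Cd84, Ly9 and Slamf9, in 5 probe sets. Slamf1, Slamf6, Slamf7 and Slamf8, in the other 8 probe sets, lay below it. Slamf9 was the tested member nearest to the filter, with a mean of 6.14, and Slamf1 the nearest below it, at 5.18. In the plot of values by array, the separation of libraries is largest for Cd48.

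**Figure D1:**
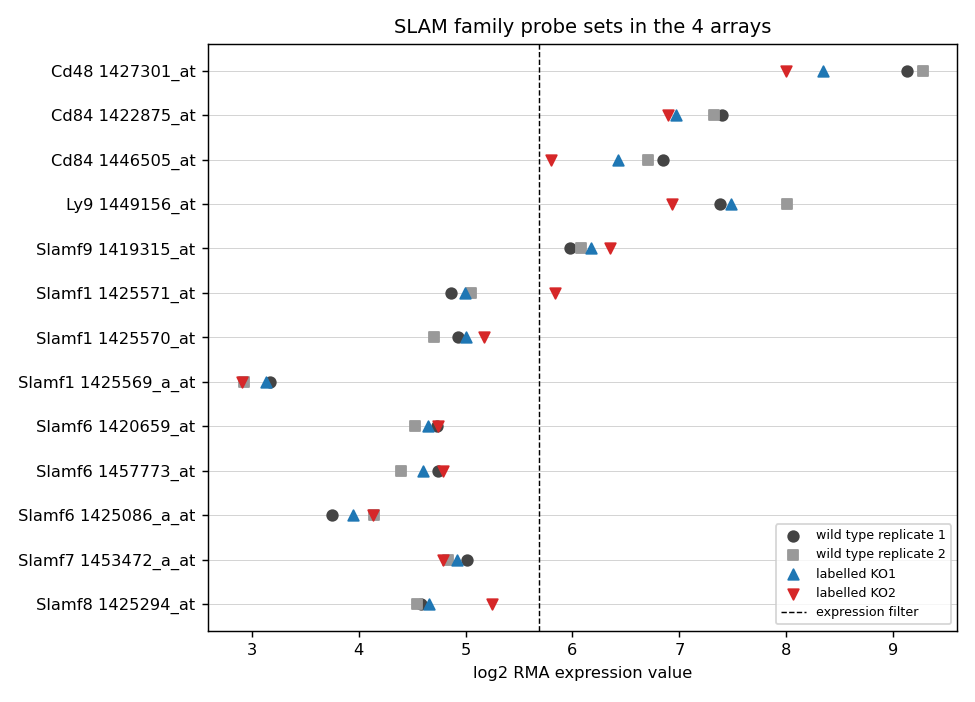
Log2 RMA expression value (horizontal axis) of each of the 13 SLAM family probe sets (rows) in each array, with 1 marker per library and the expression filter at 5.69 as a dashed line. Cd48 lies between 7.999 and 8.35 in the KO libraries and between 9.13 and 9.28 in wild type, and the 8 probe sets of Slamf1, Slamf6, Slamf7 and Slamf8 have means left of the line.

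Cd48 transcript was lower in both KO libraries than in either wild-type library. Its 1 probe set (1427301_at) read 9.13 and 9.28 in wild type, 8.35 in the library labelled KO1 and 7.999 in the one labelled KO2. The groups did not overlap, and the gap between them was wider than the range within either. The mean was 9.21 ± 0.11 in wild type and 8.17 ± 0.25 in the KO libraries (SD, n = 2 each). The difference was −1.03 (SE 0.19, 95% interval −1.51 to −0.55), which is 2.05-fold lower with an interval of 1.47 to 2.85. In RNA of a sorted population, fewer cells carrying a transcript and less of it per cell cannot be told apart.

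That difference did not pass over all genes in limma (adjusted p = 0.506, unadjusted p = 0.00217). It stood at rank 48 of 11196 genes by p. In this comparison 1 gene passed, 0.00893% of those tested, and 0 of the 4 tested SLAM family genes did. At an unadjusted p under 0.05 there were 2 of the 4, Cd48 and Cd84, where the share of all genes was 6.84%. An exact permutation test of 2 libraries against 2 cannot give a two-sided p below 0.333. Across all genes tested, 24% lay lower in both KO libraries than in both of wild type, so the lack of overlap alone is common. For size, 0.670% of genes tested had a difference at or below that of Cd48. In both KO libraries, 31 genes, Cd48 among them, were at least as low as Cd48.

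Cd48 was lower in each KO library, but whether it passed depended on which library stood for Lyl1-null, as did the share of all genes that passed. In the library labelled KO1, the one with Lyl1 at 5.14, Cd48 was at 55.1% of the wild-type mean, a difference of −0.86 (SE 0.17, 95% interval −1.27 to −0.45). This did not pass in limma (adjusted p = 0.249), in a comparison where 0.196% of genes passed. Cd48 nevertheless lay far out among all genes there, since 0.661% had a difference at or below it. In the library labelled KO2, with Lyl1 at 10.32, Cd48 was at 43.3% of the wild-type mean, a difference of −1.21 (SE 0.17, 95% interval −1.62 to −0.80). This passed (limma, adjusted p = 0.0124), but so did 14.8% of all genes, 10.8% with a lower value, and 2.38% of genes were at or below Cd48. The difference between the KO libraries was −0.35 for Cd48 (95% interval −0.82 to 0.13) and did not pass (adjusted p = 0.331), where 2.97% of genes did. Both single-library comparisons use the same wild-type arrays, the only replicated group in that fit. Their spread comes from that pair, moderated by limma towards the spread over all genes.

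**Figure D2:**
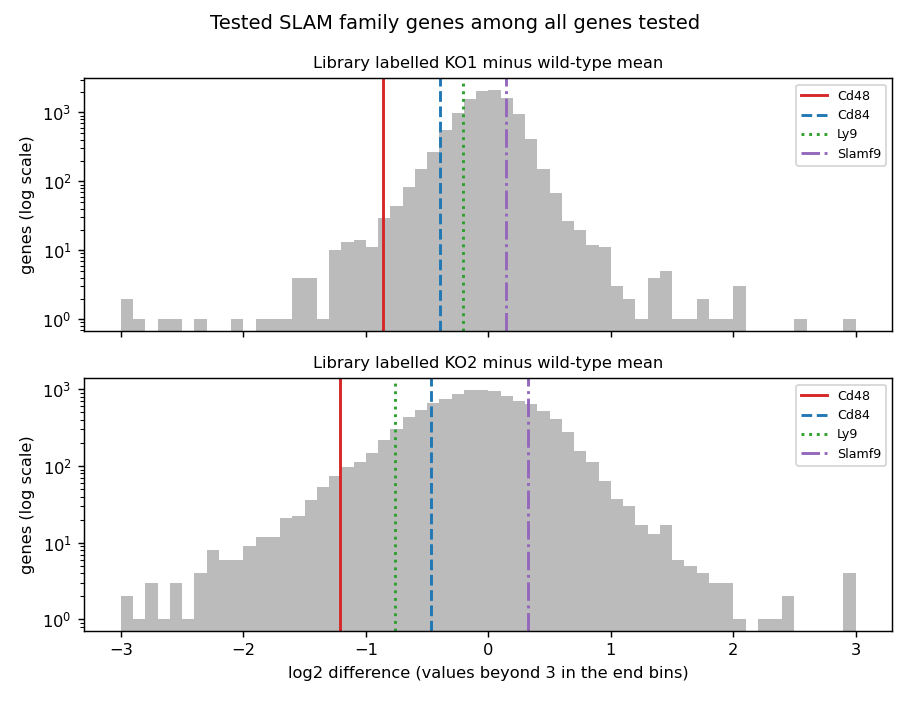
Number of genes tested (vertical axis, log scale) by log2 difference from the wild-type mean (horizontal axis) in each KO library, with lines at the 4 tested SLAM family genes. Cd48 stands at −0.86 in the narrower distribution of the library labelled KO1 and at −1.21 in the broader one of the library labelled KO2.

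Cd84, a receptor that binds itself between blood cells, was lower in both KO libraries in each of its 2 probe sets. The brighter one (1422875_at) read 7.40 and 7.33 in wild type, 6.97 in the library labelled KO1 and 6.90 in the one labelled KO2. The other (1446505_at) read 6.85 and 6.71 in wild type, 6.43 in the library labelled KO1 and 5.80 in the one labelled KO2. Both probe sets kept the groups apart, as did 26.4% of all probe sets above the filter with lower values. As probe sets of 1 gene on the same arrays, they are not separate evidence. They differed in how low the library labelled KO2 lay. The brighter probe set, which stood for the gene, had a difference of −0.43 (SE 0.16, 95% interval −0.82 to −0.04) and did not pass in limma (adjusted p = 0.644). In the library labelled KO1 it was at 76.3% of the wild-type mean (adjusted p = 0.748) and in the one labelled KO2 at 72.3% (adjusted p = 0.0989). The other probe set was at 78.5% and 50.9% in the same order.

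Ly9, another receptor that binds itself, was spread within wild type. Its 1 probe set (1449156_at) read 7.38 and 8.01 in wild type, 7.49 in the library labelled KO1 and 6.93 in the one labelled KO2. The library labelled KO1 lay between the wild-type libraries, so the groups overlapped. The difference was −0.49 (SE 0.30, 95% interval −1.22 to 0.25; limma, adjusted p = 0.644). Its size depended on the library left out, at −0.80 without wild-type replicate 1 and −0.17 without replicate 2. Leaving out the library labelled KO1 gave −0.76, and leaving out the one labelled KO2 gave −0.21. In the library labelled KO2 alone it was at 59.0% of the wild-type mean and did not pass (adjusted p = 0.0981).

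Slamf9 had higher values in the KO libraries, unlike the other 3 tested members. Its 1 probe set (1419315_at) read 5.97 and 6.08 in wild type, 6.17 in the library labelled KO1 and 6.35 in the one labelled KO2. The groups did not overlap, as was so with higher values for 18.7% of all genes tested. The difference was 0.23 (SE 0.17, 95% interval −0.18 to 0.65) and did not pass in limma (adjusted p = 0.656). The tested members had a median difference of −0.30 in the library labelled KO1 and −0.61 in the one labelled KO2, where the medians of all genes tested were −0.01 and −0.08.

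Slamf1, the CD150 marker of stem cells, was dim in all 4 libraries. Its brightest probe set (1425571_at) read 4.86 and 5.05 in wild type, 4.99 in the library labelled KO1 and 5.83 in the one labelled KO2. Only the last of these values exceeded the filter. The second (1425570_at) read 4.93 and 4.70 in wild type, 5.001 in the library labelled KO1 and 5.17 in the one labelled KO2. The third (1425569_a_at) lay between 2.91 and 3.18 in all libraries, with the lowest value in the library labelled KO2. The 3 probe sets thus differed in direction in that library, at 0.88, 0.35 and −0.14 from wild type. In the library labelled KO1 they stood at 0.04, 0.18 and 0.08.

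Slamf8, a myeloid member, had the other large value in the library labelled KO2. Its 1 probe set (1425294_at) read 4.59 and 4.55 in wild type, 4.66 in the library labelled KO1 and 5.25 in the one labelled KO2, all below the filter. Slamf7 (1453472_a_at) read 5.01 and 4.84 in wild type, 4.92 in the library labelled KO1 and 4.79 in the one labelled KO2, with overlapping groups. The 3 Slamf6 probe sets lay between 3.76 and 4.79 in all libraries, and the groups overlapped in each.

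Dim probe sets in general read higher in the library labelled KO2. Over the 8 dim SLAM family probe sets the median difference from wild type there was 0.20, and over all probe sets below the filter it was 0.21. Quantile normalization of the deposited values brought these medians to −0.01 and 0.03, and the number of the 8 with a positive difference from 6 to 4. Slamf1 1425571_at and Slamf8 kept differences of 0.74 and 0.49 under it. Among all probe sets below the filter, 1.31% had a difference in that library at or above that of Slamf1 1425571_at, and 5.48% at or above that of Slamf8, in the deposited values. With both KO libraries, their differences were 0.46 (SE 0.29) and 0.39 (SE 0.23), and neither passed in limma over all 45037 probe sets (adjusted p = 0.594 and 0.588). Above the filter, the directions of the 5 probe sets were the same in the deposited, quantile-normalized and median-centred values, with 4 lower and 1 higher. Cd48 was at −0.80 and −0.99 in the libraries labelled KO1 and KO2 after quantile normalization.

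**Figure D3:**
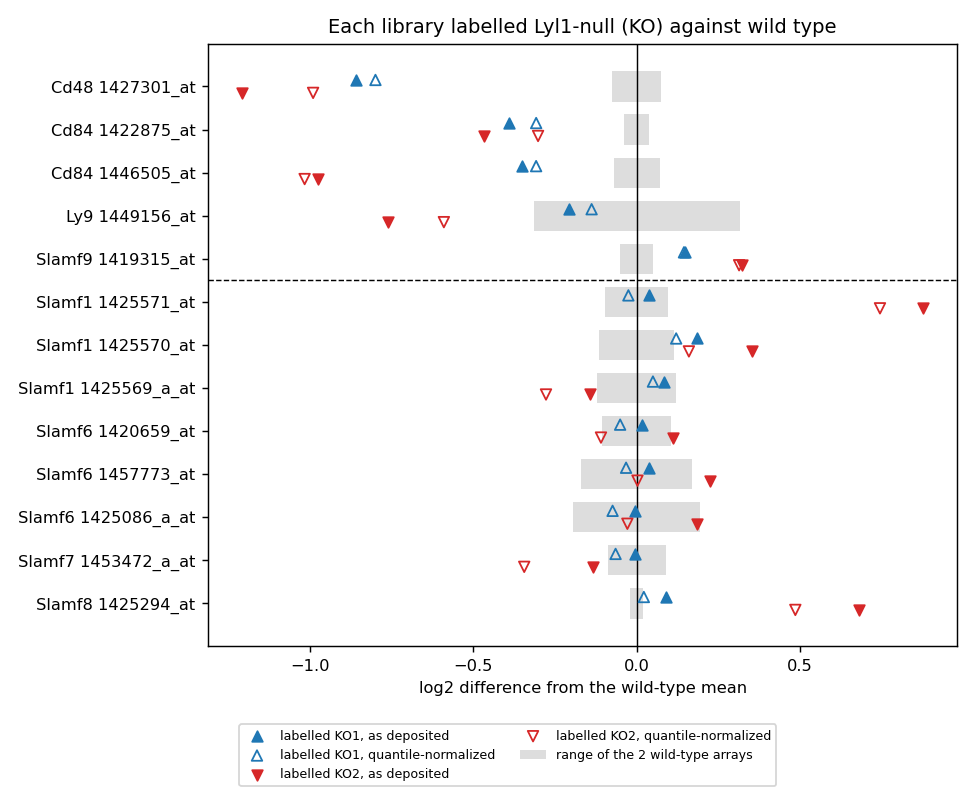
Log2 difference from the wild-type mean (horizontal axis) of each SLAM family probe set (rows) in each KO library, as deposited (filled) and after quantile normalization (open). Grey bars show the range of the wild-type pair centred on 0, and the dashed line parts the 5 probe sets above the filter from the 8 below it. Cd48 and both Cd84 probe sets lie left of the bars in both libraries, and Slamf1 1425571_at and Slamf8 lie far right in the library labelled KO2 alone.

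The partners of Cd48 were read from a fixed list. Cd244a, the gene of the 2B4 receptor and a SLAM family member outside the list of 8, was well above the filter. Its brighter probe set (1449991_at) read 9.20 and 8.98 in wild type, 9.37 in the library labelled KO1 and 9.25 in the one labelled KO2. The difference was 0.22 (SE 0.17, 95% interval −0.21 to 0.64) and did not pass in limma (adjusted p = 0.672). The second Cd244a probe set (1426120_a_at) had a difference of 0.03 (SE 0.16). Median centring turned that one to −0.04, and quantile normalization gave 0.18 for it and 0.35 for the brighter one. Cd2, the other partner, was below the filter, at 4.58 to 5.06.

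Of 26 listed SLAM adaptor and signalling genes, 20 were on the array as the single gene of a probe set and 19 were tested. The adaptor SAP (Sh2d1a) lay far below the filter, at 3.07 to 3.26. Of the 19, 12 had a negative and 7 a positive difference, the median was −0.14 against −0.05 for all genes tested, and 0 passed in limma, with 0 at an unadjusted p under 0.05. The 2 with the smallest p were Rasa1, a Ras GTPase-activating protein (−0.48, adjusted p = 0.644), and Pik3c3, a lipid kinase of autophagy (−0.51, adjusted p = 0.644). Against the library labelled KO2 alone 4 of 19 passed, each with a lower value, where 10.8% of all genes passed lower. These were Rasa1 (−0.67), Pik3c3 (−0.75), the exchange factor gene Vav1 (−0.92) and Inpp5d, the gene of the lipid phosphatase SHIP-1 (−0.96), the last pair named after their values were seen. Fyn, the kinase that SAP recruits, had a difference of −0.14 (SE 0.17; limma, adjusted p = 0.769) and was likewise named after its value was seen.

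**Figure D4:**
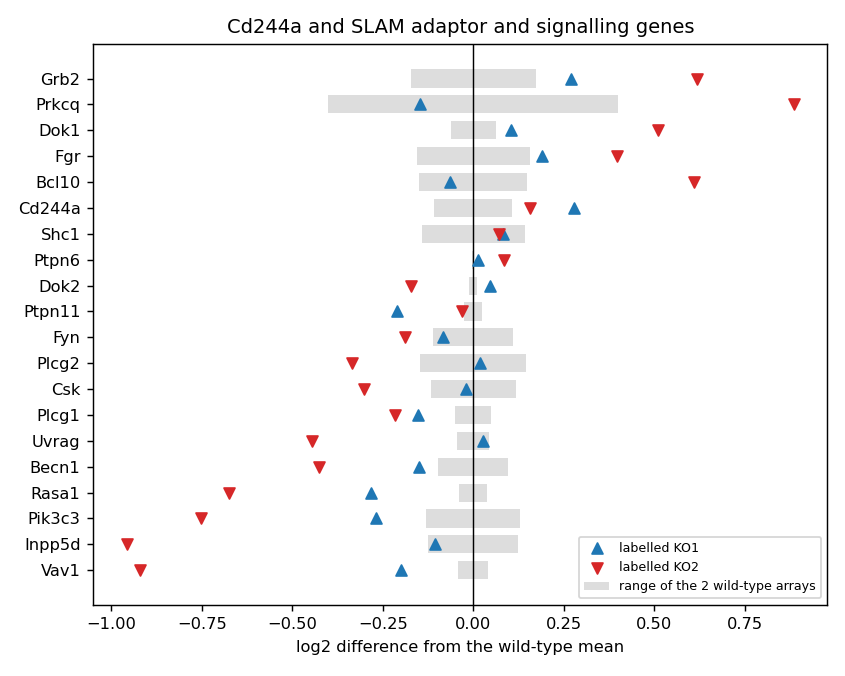
Log2 difference from the wild-type mean (horizontal axis) of Cd244a and the 19 tested adaptor and signalling genes (rows) in each KO library, with grey bars for the range of the wild-type pair centred on 0. Vav1 and Inpp5d lie at −0.92 and −0.96 in the library labelled KO2 and at −0.20 and −0.10 in the one labelled KO1.

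Ly9, Slamf7, Cd48, Slamf1, Cd84 and Slamf6 lie in that order on chromosome 1, next to Cd244a, with Slamf9 and Slamf8 further along. The 10 nearest tested genes on each side of the run, Cd244a and Slamf9 among them, had 11 negative and 9 positive differences, a median of −0.04 and 0 calls in limma. The median was −0.04 in the library labelled KO1 and −0.07 in the one labelled KO2. In the latter, 3 of the 20 passed, where 14.8% of all genes did. These were Arhgap30 (−0.95) and F11r (−0.75) with lower values and Pfdn2 (1.10) with a higher one. None of the 20 had a difference as low as that of Cd48 in the library labelled KO2. In the library labelled KO1 the lowest of them was Nectin4, at −0.53, against −0.86 for Cd48.

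**Figure D5:**
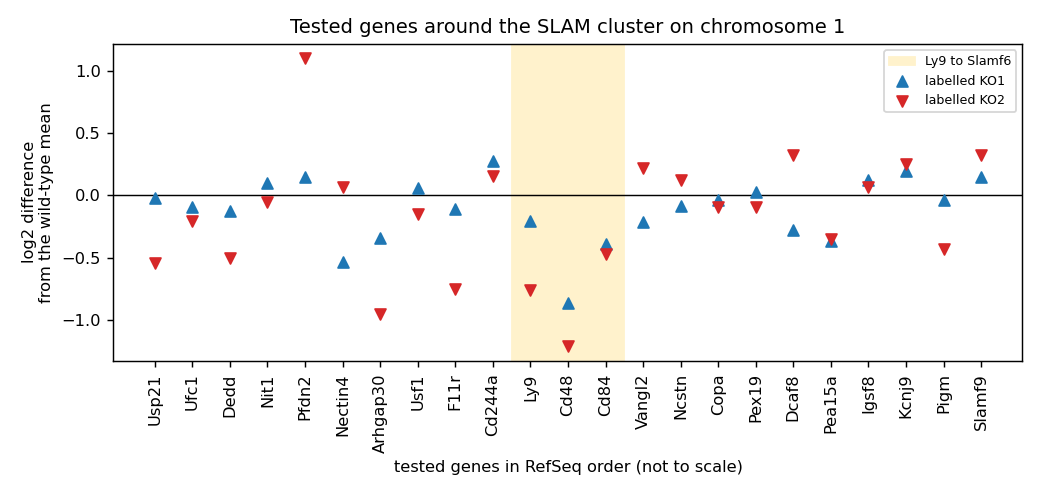
Log2 difference from the wild-type mean (vertical axis) for tested genes in RefSeq order along chromosome 1 (horizontal axis, not to scale), in each KO library, with the run from Ly9 to Slamf6 shaded. Cd48 is the lowest point in both libraries, at −0.86 and −1.21, and Cd244a beside the run is at 0.28 and 0.16.

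The genes whose 4 array values, each less its mean, lay nearest to those of Cd48 by Euclidean distance over all genes tested were Tpm4, Csf2rb, Mex3b, Klf3 and Ncoa2, at distances from 0.0807 to 0.191 log2 units. Tpm4, a tropomyosin of the cytoskeleton, read 9.42 and 9.48 in wild type, 8.65 in the library labelled KO1 and 8.27 in the one labelled KO2. Csf2rb, the shared receptor chain for GM-CSF, IL-3 and IL-5, read 8.36 and 8.45 in wild type, 7.58 in the library labelled KO1 and 7.11 in the one labelled KO2. Klf3 encodes a zinc-finger repressor and Ncoa2 a nuclear receptor coactivator. With 4 libraries this nearness is a description, and none of the 5 passed in limma (adjusted p from 0.513 to 0.644).

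Markers of LMPPs and of other cells were set beside the family, each list by its members and by its mean log2 level. The 6 measured LMPP genes of 7 listed include Kit and Flt3, on which the cells were sorted, and Cd34, Cd27, Ptprc and Dntt, on which they were not. Below the wild-type mean were 4 of the 6 in the library labelled KO1 and all 6 in the one labelled KO2. Of all 11196 genes tested, 5789 and 6360 lay below it in the same order. The list medians were −0.21 and −0.83, where those of all genes tested were −0.01 and −0.08. The list mean was 11.59 and 11.70 in wild type, 11.47 in the library labelled KO1 and 10.94 in the one labelled KO2. Kit, the stem cell factor receptor, was at −0.61 and −1.20 in KO1 and KO2, and Cd34, a surface protein of progenitors, at −0.23 and −0.89. In the same order, Flt3 was at −0.22 and −0.76 and Ptprc at −0.21 and −0.30. Cd27, at 0.19 and −0.92, and Dntt, at 0.05 and −0.17, were higher than wild type in KO1.

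Neutrophil granule and S100 genes had the highest medians of these marker lists. Of 5 measured, 4 were tested, with a median of 1.88 in the library labelled KO1 and of 1.597 in the one labelled KO2. The medians of all genes tested were −0.01 and −0.08 in the same order. With both KO libraries 0 of the 4 neutrophil genes passed in limma, and 4 of 4 had an unadjusted p under 0.05, where 6.84% of all genes did. All 4 lay higher in each KO library than in either wild-type library, as did 18.7% of all genes tested. The list mean was 6.32 and 6.06 in wild type, 7.92 in the library labelled KO1 and 7.59 in the one labelled KO2. Ngp, a granule protein gene, was at 2.06 and 1.93 in KO1 and KO2, and S100a8, a calcium-binding protein of neutrophils, at 1.77 and 1.52. Ltf, another gene of this list, was at 1.76 and 1.18 in the same order.

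In each of the other lists, tested members went both ways in at least 1 KO library, and the list mean moved less than that of the neutrophil genes. Of the megakaryocyte genes, 4 of 4 were measured and 3 tested. The platelet chemokine gene Pf4 was at −0.80 in KO1 and −1.18 in KO2, close to the values of Cd48. With both KO libraries Pf4 did not pass (limma, adjusted p = 0.623), where 0.00893% of all genes tested did. The integrin gene Itga2b was at 0.46 and 0.30. The list mean was 7.41 and 7.33 in wild type, 7.25 in the library labelled KO1 and 7.16 in the one labelled KO2. Of the mature T and NK genes, 8 of 9 were measured and 4 tested. The NK receptor gene Klrd1 was at −0.80 and −0.71 and did not pass with both KO libraries (limma, adjusted p = 0.574). The T-cell coreceptor gene Cd8a was at 0.16 and 0.73 and did not pass either (limma, adjusted p = 0.644). Cd3d, Cd3g, Gzmb and Ncr1 were below the filter in all libraries. The list mean was 5.97 and 5.91 in wild type, 6.01 in the library labelled KO1 and 6.28 in the one labelled KO2.

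Of the stem cell genes, 7 of 8 measured and 4 tested, Hlf, a transcription factor of stem cells, was at −0.71 in KO1 and −0.52 in KO2, and the receptor gene Procr at 0.31 and 0.61. Fgd5 exceeded the filter in KO1 alone, at 6.12, and Tek and Vwf in no library. The list mean was 7.45 and 7.27 in wild type, 7.31 in the library labelled KO1 and 7.43 in the one labelled KO2. Of the macrophage and dendritic genes, 7 of 7 measured and 5 tested, the integrin gene Itgax was at 0.61 and 0.53 in KO1 and KO2 and the receptor gene Csf1r at −0.32 and −0.16. Adgre1 and Itgam were below the filter in all libraries. The list mean was 7.15 and 7.18 in wild type, 7.26 in the library labelled KO1 and 7.24 in the one labelled KO2. Of the mature B and plasma cell genes, 5 of 6 measured and 3 tested, the B-cell receptor chain genes Cd79a and Cd79b were at 0.11 and 0.32 in KO1 and at 0.61 and −0.002 in KO2. The list mean was 6.80 and 7.04 in wild type, 6.99 in the library labelled KO1 and 6.97 in the one labelled KO2. In these 3 lists 0 genes passed in limma with both KO libraries, where 0.00893% of all genes tested did. At an unadjusted p under 0.05 there were 2, Hlf and Itgax, where the share of all genes was 6.84%. The part of any of these marker values in the Cd48 and Cd84 differences was not tested.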

How the data were processed

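The authors deposited 1 table of log2 expression values, computed by RMA according to the submitters' processing notes, with its version and any joint normalization with other arrays not given in the sources used here. Values were used as deposited for 2 wild-type and 2 Lyl1-null samples, and the number of arrays limits precision. Of 45037 probe sets, 34945 had 1 gene symbol in the platform annotation, 932 several and 9160 none listed. The brightest probe set stood for a gene, and 11196 genes with a mean of at least 5.69, the median of all probe-set means, were tested with limma 3.58.1 (R 4.3.3; lmFit, eBayes), two-sided, with Benjamini-Hochberg adjustment at 0.05. Single-library differences came from a 3-group fit in which only the wild-type pair was replicated, with its spread moderated over all genes by eBayes. That fit assumes that a lone library varies like the wild-type pair. Every probe set was also fitted without a filter. The limma test was checked on simulated data with known changes and the same variance in every library. That check does not cover a library as far from the others as the one labelled KO2. RefSeq tables gave gene order and promoters.

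The members and gene lists were chosen with earlier results of these data known. Named were all members, Lyl1, list genes past the threshold or else the 2 of smallest p, up to 4 neighbours, and the 5 genes nearest to Cd48 in pattern, skipping RIKEN clones and predicted genes; marker genes below the filter and a few list genes were named beside these. Alternatives covered filter, probe-set choice, scaling, prior, threshold, replicate block and each library left out.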

Additional observations from a re-analysis of the deposited data

How the results depend on the processing

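Cd48 was lower under all 15 alternatives, from −1.21 to −0.86, and 14 of them left it short of the threshold. Filter, probe-set choice, prior, threshold and block cannot change the difference of a gene with 1 probe set, which stayed at −1.03. Leaving out 1 library cannot turn its sign, since the groups did not overlap. Only the scaling could have changed the direction, and Cd48 was at −0.90 with quantile normalization and −1.11 with median centring. The exception left out the library labelled KO1 (−1.21), where 1 SLAM family gene passed rather than 0. Over the fits that left out 1 library, the number of members called ran from 0 to 1 and the Cd48 difference from −1.21 to −0.86. Cd84 (−0.55 to −0.30), Ly9 (−0.80 to −0.17) and Slamf9 (0.15 to 0.32) kept their direction and did not pass under any alternative run. The stricter filter, the 70th percentile, left Cd84 and Slamf9 untested.

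Over all genes, 1 passed. The number was 4 without a filter, 0 with the mean of probe sets, 2 with all probe sets separate, 2 with quantile normalization, 2 with median centring, 4 with a trended prior and 6 at a threshold of 0.10. It ran from 1 to 1652 as libraries were left out: 1652 without the library labelled KO1, 22 without the one labelled KO2, and 2 without wild-type replicate 2. Between the KO libraries, 333 genes passed; the number was 2 without a filter, 528 with the stricter filter, 153 with the mean of probe sets, 0 with all probe sets separate, 854 with quantile normalization and 996 with median centring. The cause of these shifts was not tested.

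With the replicate number as a block, 3 genes passed and Cd48 had an adjusted p of 0.861, with the difference of −1.03 unchanged by construction. Deviations of same-numbered libraries correlated at −0.41 over 11196 genes, so nothing shows that the numbers pair the libraries. A block that pairs unlike numbers, added after the data were seen, called 1 gene and 0 SLAM family members.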
